A study of Mus musculus with 14 samples.

Results

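The regions described here are genomic sites of RNF2 binding in mouse embryonic stem cells that were called in 3 of 4 RNF2 chromatin immunoprecipitation (ChIP-seq) peak lists and missed in the list of the first wild-type library alone. Overlapping RNF2 peaks of 2 wild-type and 2 BAP1 knockout libraries were merged over chromosomes 1 to 19, X and Y into 41903 regions, and the 3822 regions with a peak in both BAP1 knockout libraries and in the second wild-type library, but none in the first wild-type library, were kept. They are called the wild-type-1-missed regions below. Such a region was 9.12% of all merged regions. The regions were chosen by which of these 4 lists held a peak, so presence, height and width in these 4 libraries describe the regions and test nothing.

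All cells were embryonic stem cells (ESC) on a C57BL/6 background, labelled with an age of E3.5-4.5 days, and all of them, controls included, had been kept for 4 days in 100 nM 4-OHT and the caspase inhibitor emricasan at 10 µM. RNF2 was precipitated with antibody ab3832 from cells with the genotype labels RNF2-WT and RNF2-BAP1KO (the first libraries), Wild type and BAP1 knockout (the second libraries) and RNF2 knockout, and BAP1 was precipitated from BAP1-C91A and from BAP1 knockout cells. The Bap1C91A/- cells were in addition crosslinked with disuccinimidyl glutarate before nuclear extraction. Labels do not state how the knockouts were made, how many clones were used or whether the second libraries came from separate cultures, so spread between libraries of a genotype may be technical. With 2 libraries against 2, an exact two-sided permutation test cannot go below p = 0.333, and no such test was made.

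Depth differed between the first and the second libraries more than between genotypes. The first libraries held 58.4 M (wild type) and 54.1 M (BAP1 knockout) ChIP tags and gave 4038 and 7946 peaks, and the second held 149 M and 139 M tags and gave 28770 and 39872 peaks. The caller's version and fragment length also differed between the pairs, so library pair and these settings cannot be told apart. In RNF2 knockout cells, the control for the antibody, 119 M tags gave 0 peaks. The BAP1 antibody gave 2395 peaks from 415 M tags in C91A cells and, as its control, 144 peaks from 32.5 M tags in BAP1 knockout cells.

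RNF2, also called RING1B, is the catalytic E3 ligase subunit of Polycomb repressive complex 1 (PRC1), which attaches a single ubiquitin to histone H2A. In embryonic stem cells PRC1 is known for binding CpG-rich promoters, most strongly those of silent developmental genes, together with PRC2, the complex that methylates histone H3. BAP1 is the catalytic subunit of the PR-DUB complex, which removes ubiquitin from H2A, and C91A replaces its catalytic cysteine.

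The letters of the promoters show what kind of sequence lay under these regions. The following 4 are the promoters of the highest-ranked regions with an entry in the reference table (RefSeq, GRCm38.p6; 250 bases before to 50 after a start, 5′ to 3′ on the gene's strand), with every CG dinucleotide in capitals. Phox2a (chr7:101818063-101818362, plus strand) encodes a homeodomain factor of autonomic neurons, Slc43a1 (chr2:84840073-84840372, plus) an amino acid transporter, Man1c1 (chr4:134704241-134704540, minus) a Golgi mannosidase and Jph3 (chr8:121730309-121730608, plus) a junctophilin that ties the endoplasmic reticulum to the plasma membrane in neurons.
Phox2a: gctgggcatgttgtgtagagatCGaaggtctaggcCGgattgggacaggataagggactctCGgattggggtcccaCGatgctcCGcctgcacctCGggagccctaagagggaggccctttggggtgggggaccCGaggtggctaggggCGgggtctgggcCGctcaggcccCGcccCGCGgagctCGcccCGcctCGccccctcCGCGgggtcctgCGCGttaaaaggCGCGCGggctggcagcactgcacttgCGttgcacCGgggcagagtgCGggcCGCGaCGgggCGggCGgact
Slc43a1: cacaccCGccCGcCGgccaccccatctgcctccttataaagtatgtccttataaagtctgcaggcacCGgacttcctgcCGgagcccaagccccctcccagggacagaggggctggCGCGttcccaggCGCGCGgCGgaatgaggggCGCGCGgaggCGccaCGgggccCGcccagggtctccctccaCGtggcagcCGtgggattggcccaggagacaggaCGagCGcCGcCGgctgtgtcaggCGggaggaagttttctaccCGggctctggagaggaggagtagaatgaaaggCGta
Man1c1: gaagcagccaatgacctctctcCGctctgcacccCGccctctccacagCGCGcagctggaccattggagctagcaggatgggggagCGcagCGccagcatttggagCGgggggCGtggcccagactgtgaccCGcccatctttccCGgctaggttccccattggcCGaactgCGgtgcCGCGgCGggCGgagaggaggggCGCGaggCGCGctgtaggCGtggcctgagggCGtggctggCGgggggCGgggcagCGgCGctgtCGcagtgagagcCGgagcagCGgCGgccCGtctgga
Jph3: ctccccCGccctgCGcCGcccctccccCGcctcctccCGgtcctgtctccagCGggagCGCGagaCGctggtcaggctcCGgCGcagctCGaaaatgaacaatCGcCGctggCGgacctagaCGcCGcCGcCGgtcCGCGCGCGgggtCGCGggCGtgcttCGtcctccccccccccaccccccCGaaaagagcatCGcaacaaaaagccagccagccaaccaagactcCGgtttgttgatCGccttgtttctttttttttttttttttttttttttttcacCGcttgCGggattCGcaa
These 300 bases held 30, 26, 31 and 34 CG dinucleotides, where the median over all 21263 promoters of the table was 13.

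CpG-rich promoters were typical of the regions. Of the promoters in the table, 2373 lay in a wild-type-1-missed region and in no region called in all 4 libraries. Their median was 22 CG dinucleotides, against 23 in 2157 promoters under regions of all 4 libraries, 24 in 4318 promoters under regions called in both second libraries only, and 4 in 10533 promoters with no RNF2 peak. The median ratio of observed to expected CG was 0.741, 0.758, 0.799 and 0.237 in the same order. With medians of 22 to 24, CG content did not order the 3 classes of bound promoters by the height of their peaks.

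Short sequence motifs were counted in the same promoters. The ETS letters CCGGAAG, read on both strands as all motifs here, stood in 11.0% of the promoters under wild-type-1-missed regions (95% Wilson interval 9.80 to 12.3%), in 7.23% (6.21 to 8.40%) under regions of all 4 libraries and in 18.1% under regions of the second libraries only, with 11.6% in all promoters. Within the wild-type-1-missed regions, split into 3 groups of equal size by fold enrichment in the second wild-type library, the share was 18.9% in the lower, 8.69% in the middle and 5.33% in the upper group. Without regions at the ends of 2 or more genes, the share over all of them was 8.80%. The GC box CCCCGCCCC stood in 27.4% (25.7 to 29.3%), against 20.6% under regions of all 4 libraries, 26.5% under regions of the second libraries only and 15.4% of all promoters. Phox2a and Man1c1 above hold it. The YY1 letters AAGATGGC were in 1.77% and the TATA letters TATAAA in 6.91%, against 3.05% and 12.6% of all promoters. The E-box CACGTG stood in 10.4% against 7.84%, and the E2F letters TTCCCGC in 8.64% against 5.95%. Promoters under regions of all 4 libraries and of the second libraries only, in this order, had the E-box in 11.7 and 11.3% and the E2F letters in 10.1 and 9.68%. They had the TATA letters in 7.51 and 4.52% and the YY1 letters in 1.39 and 3.36%. These are matches of letters, and none of them shows that a factor was bound.

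In both second libraries the regions ranked between the other classes, and in the first BAP1 knockout library below the regions of all 4. Fold enrichment is the peak caller's ratio of ChIP to local background at a summit, read within 1 list except for the rank that chose which genes to name, and the highest peak of a library in a region stands for it. In the first BAP1 knockout library, the median fold enrichment of the wild-type-1-missed regions was 3.74 (quartiles 3.05 to 5.17), against 9.62 in regions of all 4 libraries. In the second wild-type library it was 5.78 (4.13 to 8.47), between 15.5 in regions of all 4 libraries and 3.23 in regions of the second libraries only. In the second BAP1 knockout library it was 11.6 (8.72 to 15.2), between 18.5 and 4.14. As percentiles of each library's own list, these medians stood at 34.9, 80.7 and 88.2%. The regions were thus in the weaker part of the shorter first knockout list, where 35.6% of them fell in the bottom 25% and 0.445% in the top 10%, and in the stronger part of both longer lists, where 65.8% and 94.1% ranked above the 75th percentile.

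**Figure D1:**
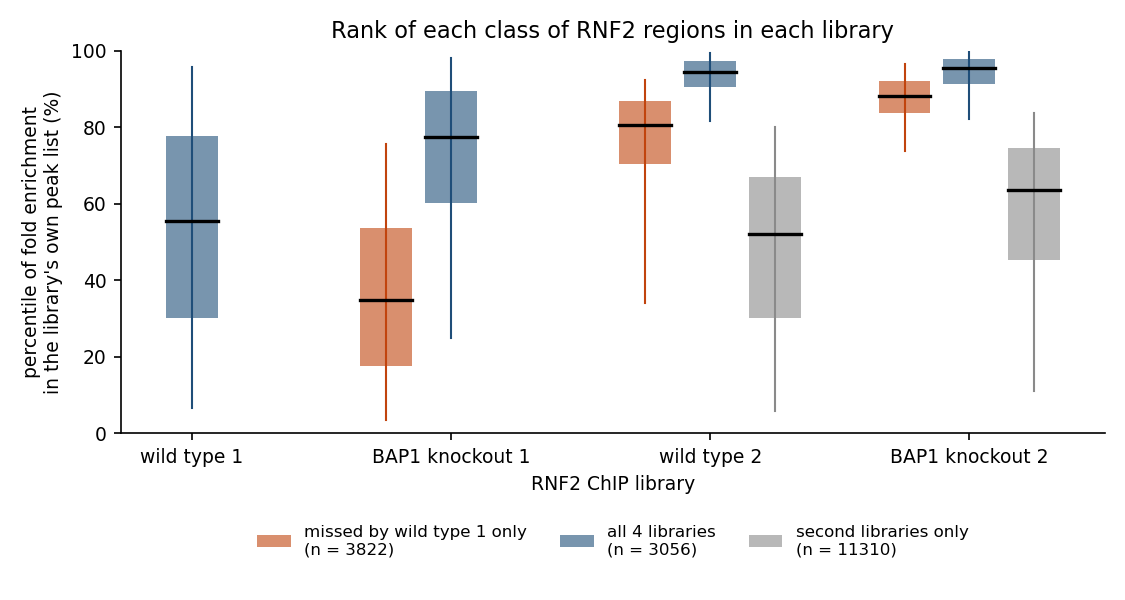
Percentile of fold enrichment within each RNF2 library's own peak list (y axis, %) for regions missed by wild type 1 only, regions of all 4 libraries and regions of the second libraries only; bars span the quartiles, black lines the medians, thin lines the 5th to 95th percentiles. The median of the regions missed by wild type 1 lies below that of all 4 libraries in each of 3 libraries (34.9, 80.7 and 88.2%) and above that of the second libraries only in both second libraries.

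The regions made up much of one list and little of another. They held 4140 of the 7946 peaks of the first BAP1 knockout library (52.1%), 5906 of the 28770 peaks of the second wild-type library (20.5%) and 4052 of the 39872 peaks of the second BAP1 knockout library (10.2%). A peak in the first BAP1 knockout and none in the first wild-type library was found in 3938 regions (9.4% of all merged regions), and the reverse in 97 (0.231%). All of those 97 had a peak in both second libraries. Their median fold enrichment there was 5.79 in wild type and 5.70 in BAP1 knockout. The rule fixed which library lacked a peak in the wild-type-1-missed regions, but not in those 97. These counts describe the lists, and whether they go with genotype was not tested.

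The summits of different libraries fell close together inside the regions. The median distance between the highest summits was 110 bp for the first BAP1 knockout and second wild-type libraries, 95 bp for both knockout libraries and 87.5 bp for both second libraries, and 78.7 to 85.4% of the summit pairs lay within 250 bp. Regions of all 4 libraries gave 79.5 to 85.2%.

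Most regions were far from any peak of the first wild-type library. The median distance was 154002 bp, and 126 regions (3.30%) lay within 5 kb of such a peak, against 8.96% of the regions of the second libraries only. The 3 members just inside the rule were a region at chr14:122452442-122454797 in no gene, nearest to Zic5, 326 bp from a peak, a region at chr17:39844770-39845395 at 331 bp, and the start of Adcy1, an adenylate cyclase, at 360 bp. Just outside it, the shortest overlaps with a first wild-type peak were 243 bp at chr17:39847242-39848255, 297 bp at Plxna2, a semaphorin receptor, and 297 bp at Sim1, a bHLH-PAS factor. At Plxna2 and Sim1 this was the whole first wild-type peak, as long as the fragment length of that library. Other regions tie with them at this length. The 2 chromosome 17 regions at 39843448 and 39844770 had the lowest fold enrichments of all members, between 1.27 and 1.37, and were the 2 members that overlapped a BAP1 peak of BAP1 knockout cells.

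The regions lay mainly at genes. A region within 1 kb of either end of a protein-coding gene was the case for 2513 of 3822 (65.8%, 95% Wilson interval 64.2 to 67.2%), against 40% of all merged regions, 76.5% of regions of all 4 libraries and 48.1% of regions of the second libraries only. A further 746 (19.5%) lay in a gene body and 563 (14.7%) between genes, where the median distance to a gene end was 18190 bp and 128 regions were more than 50 kb away. Leaving out the first wild-type library from the rule gave 6878 regions with 70.5% at a gene end, and leaving out the first BAP1 knockout library gave 15230 with 52.5%. The regions were 8.01 to 10.5% of the merged regions on each autosome and 12.6% (70 of 557) on the X chromosome.

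Summits sat on the transcribed side of starts. On the chromosomes with listed starts (all used here except 18), the second wild-type summit was within 1 kb of a start in 1899 of 3698 regions (51.4%), with a median of 166 bp downstream of it, and 75.7% of these 1899 were downstream. Regions of all 4 libraries had 50.4% within 1 kb with a median of 231.5 bp, and regions of the second libraries only had 40.3% with a median of 131 bp.

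**Figure D2:**
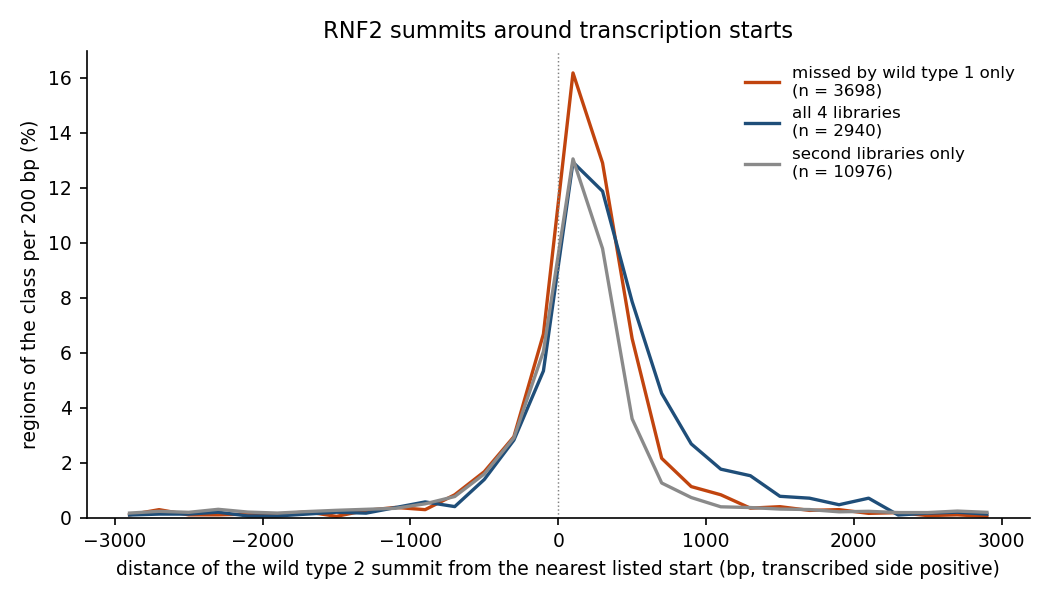
Distance of the second wild-type summit from the nearest listed transcription start (x axis, bp, transcribed side positive) against the share of each class of regions per 200 bp (y axis, %). In the regions missed by wild type 1, the 200 bp after the start hold 16.2% and the 200 bp before it 6.68%.

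Regions were ranked by the lowest of their 3 fold enrichments, given in this order throughout: first BAP1 knockout, second wild-type, second BAP1 knockout library. This minimum sets values of lists with unequal depth and caller settings side by side, so it served only to choose and order the genes and microRNAs named. The region of Phox2a, which also reaches Inppl1, a lipid phosphatase gene, ranked at the top with fold enrichments of 15.4, 16.9 and 22.6 over a width of 6255 bp (chr7:101817145-101823399). Slc43a1 followed with 14.5, 18.9 and 18.2, Man1c1 with 14.2, 17.1 and 17.6, and Jph3 with 14.0, 16.6 and 22.0. In the list of the first BAP1 knockout library these 4 stood at the 89.6, 88.4, 87.9 and 87.5 percentiles, and in both other lists higher. Man1c1 also had a BAP1 peak of C91A cells with a fold enrichment of 3.37. Ppp1r9b, which encodes the dendritic spine scaffold spinophilin, had 18.7, 13.9 and 20.0. Ifnlr1, a receptor chain for type III interferons, had 13.9, 14.2 and 21.7. Klhdc8a, a kelch-domain gene, had 13.6, 15.6 and 14.7, and Slc1a1, a neuronal glutamate transporter, had 12.9, 16.8 and 18.1. The nearest peak of the first wild-type library to any of these 8 was 15266 bp away, at Klhdc8a.

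Some of the highest-ranked regions were at no gene end. In the top 10, one lay inside Dbndd2 (chr2:164484765-164488440) with fold enrichments of 14.2, 17.0 and 20.7. Another lay 380112 bp from the nearest gene end, that of Cyp7b1, an oxysterol hydroxylase gene (chr3:18624002-18626894), with 15.5, 13.2 and 21.1. The next in rank were a region 10107 bp from Vps52 with 18.7, 11.4 and 21.8, one at a listed start inside Serinc2 with 11.1, 11.0 and 23.5, and one at a listed start inside Unc13b, a synaptic vesicle priming gene, with 10.8, 11.3 and 20.3.

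At gene level, 2787 of 21779 protein-coding genes (12.8%) had a wild-type-1-missed region at an end, and 2566 (11.8%) had a region of all 4 libraries. Both kinds were at 98 genes. A region of the second libraries only was at 5600 genes (25.7%). The gene lists below are read beside these background shares, with no test of any list. Of the regions, 358 reached the ends of 2 or more genes and cannot be assigned to 1 of them: that of Six5 below also reaches Dmpk, and that of Tgfb1 also reaches B9d2. Over all regions at a gene end, the median fold enrichments were 3.81, 5.88 and 12.1.

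Hox and other developmental transcription factor genes mostly had regions of all 4 libraries. None of 39 Hox genes had a wild-type-1-missed region, while 39 of 39 had a region of all 4 libraries. Of 136 other homeobox genes 13 had one (9.56%) and 111 had a region of all 4. Besides Phox2a, these included Six5 with fold enrichments of 10.4, 11.4 and 22.1, Hhex, a factor of blood and liver precursors, with 10.7, 8.99 and 17.8, and Cdx1, a caudal factor of the gut, with 6.99, 15.3 and 19.4. Of 91 Fox, Sox, Gata, Tbx and Pax genes 13 had a wild-type-1-missed region and 59 one of all 4. Sox13 had 13.6, 7.64 and 21.3, Sox8 6.26, 8.88 and 16.0, Foxj2 5.68, 8.35 and 13.6, and Foxa3 5.29, 4.43 and 12.2. Of 54 developmental bHLH genes 9 had one and 34 a region of all 4, and Atoh7, needed for retinal ganglion cells, had 10.2, 11.1 and 12.3.

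Immediate-early and hormone-responsive factor genes were spread over the classes. Of 42 Klf, Egr and AP-1 genes 13 had a wild-type-1-missed region (31.0%, 19.1 to 46.0%), 14 a region of all 4 libraries and 20 a region of the second libraries only. Fosl1 had fold enrichments of 7.29, 10.2 and 19.6, Fos 6.52, 4.56 and 19.2, Klf15 4.55, 7.56 and 14.0, and Egr1 5.56, 4.40 and 16.7. Of 41 nuclear receptor genes 12 had one and 17 a region of all 4. They included Rora with 9.21, 10.6 and 13.2, Rxra, the common dimer partner, with 7.19, 9.40 and 19.5, the clock repressor Nr1d1 with 5.75, 6.29 and 9.39, and the retinoic acid receptor Rarg with 6.22, 5.68 and 16.4. In the large family of Zfp, Zkscan, Zscan and Zbtb zinc-finger genes 55 of 461 had one (11.9%) and 34 a region of all 4.

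Of the signalling pathways, Fgf ligands and feedback regulators had 20 of 67 genes with a wild-type-1-missed region (29.9%, 20.2 to 41.7%) and 21 with a region of all 4 libraries. Dusp5 and Dusp8, phosphatases that turn off MAP kinases, had fold enrichments of 10.9, 9.57 and 22.0, and of 8.03, 15.4 and 18.8. Fgf23, a ligand that controls phosphate, had 8.34, 12.1 and 17.5, and Frs2, an adaptor of Fgf receptors, 6.55, 7.01 and 12.8. Of 78 TGF-beta and BMP genes 16 had one and 29 a region of all 4: the ligand Tgfb1 had 16.0, 11.7 and 13.7, the latency protein Ltbp3 13.3, 9.65 and 20.1, the receptor Acvrl1 7.87, 10.9 and 19.7, and the antagonist Chrdl2 6.32, 16.7 and 21.0. Of 81 Wnt genes 16 had one and 44 a region of all 4. Highest in rank among the 16 were Fzd9 (10.9, 11.2 and 16.2 in fold enrichment), Lgr5, Ror2 and Kremen1. Of 36 Notch genes 8 had one and 15 a region of all 4. The ligand Dll3 had 7.98, 10.9 and 20.0, the target Hes3 8.36, 12.9 and 17.6, the regulator Dtx1 8.88, 6.22 and 20.4, and the receptor Notch1 5.17, 6.87 and 12.0. Of 23 Hedgehog genes 5 had one and 12 a region of all 4, with Gli3, the pathway's main repressor, at 5.33, 18.1 and 14.3.

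Several lists of neuronal and cell-surface genes were counted in the same way. Of 82 calcium, sodium and TRP channel genes 22 had a wild-type-1-missed region (26.8%, 18.4 to 37.3%) and 19 a region of all 4 libraries, and of 92 potassium channel genes 19 and 35. Trpv4, an osmosensitive cation channel gene, had fold enrichments of 11.3, 16.6 and 22.6, Kcng1 10.0, 14.3 and 14.5, and Kcnk6 12.7, 9.99 and 13.1. Of 108 neurotransmitter receptor genes 16 had one and 43 a region of all 4, of 50 other cadherin genes 7 and 21, and of 38 other receptor tyrosine kinase genes 6 and 21. Of 74 axon guidance genes 17 had one and 36 a region of all 4, with Sema6b at 11.3, 12.1 and 18.2, Efna2 at 9.39, 13.2 and 19.5, Sema6c at 12.7, 8.78 and 19.8, and Epha8 at 7.18, 14.1 and 12.0. The clustered protocadherins, which give single neurons an adhesive identity, had 26 of 57 genes with one (45.6%, 33.4 to 58.4%) in 25 regions, and 16 with a region of all 4. Their exons are related copies, so some reads may have been split between them. Neighbours can also share a region: Pcdhga5 and Pcdhgb2 lie at the same one, with 12.2, 15.8 and 19.5.

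In the integrin and solute carrier lists, more genes had a wild-type-1-missed region than a region of all 4 libraries. Of 31 integrin genes 9 had one (29.0%, 16.1 to 46.6%) and 1 a region of all 4. Itga7, the laminin receptor chain of muscle, had fold enrichments of 11.4, 13.5 and 17.8, Itgb4, the chain of hemidesmosomes, 6.49, 5.01 and 17.5, Itgb8 4.98, 8.43 and 9.20, and Itga3 7.22, 4.83 and 19.7. Of 373 solute carrier genes 73 had one (19.6%) and 56 a region of all 4. Besides Slc43a1 and Slc1a1, Slc26a4, an anion exchanger of the inner ear and thyroid, had 8.98, 14.1 and 20.8. Of 122 collagen and matrix genes 21 had one and 41 a region of all 4.

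**Figure D3:**
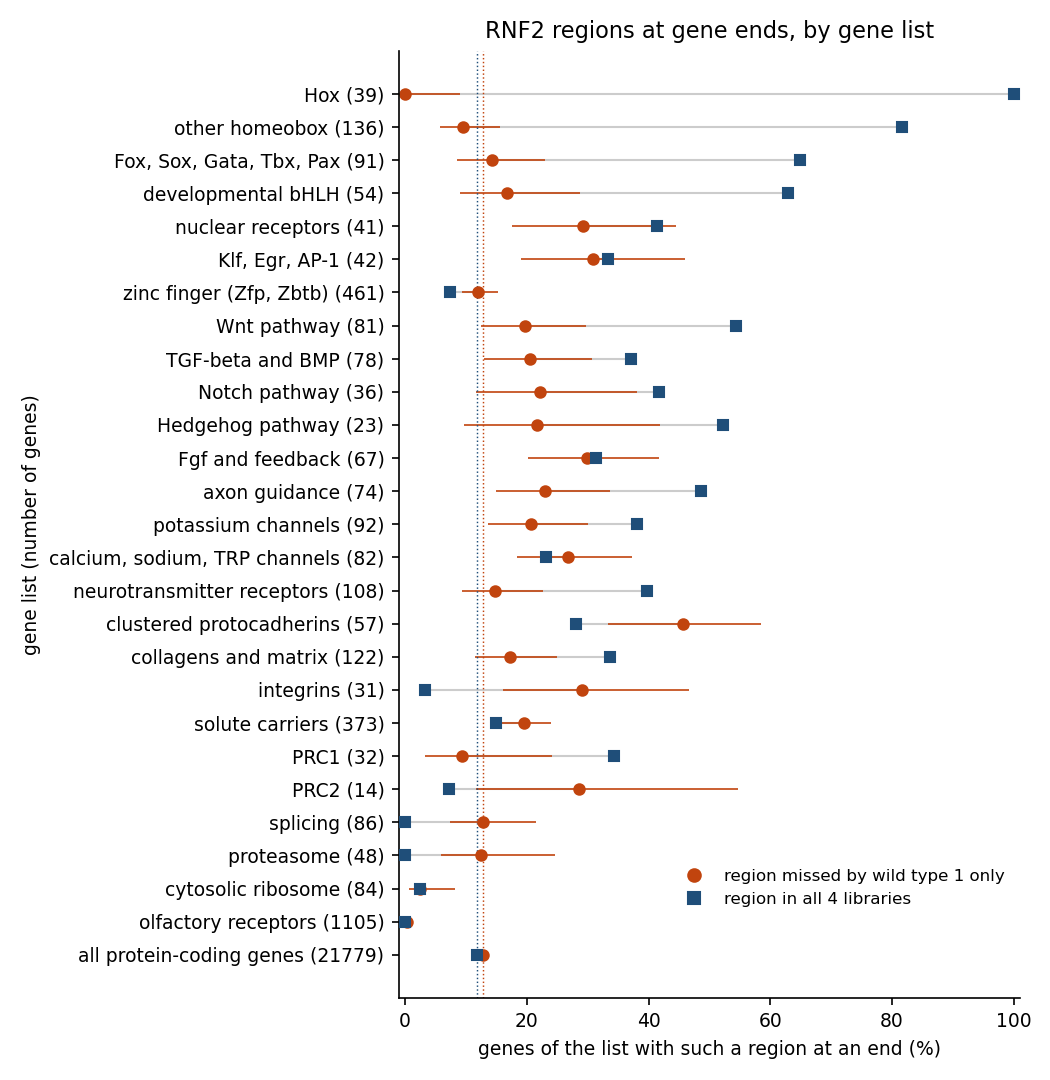
Share of the genes of each list (x axis, %; number of genes in brackets) with a region missed by wild type 1 only (circles, lines are 95% Wilson intervals) or a region of all 4 libraries (squares) at an end; dotted lines give both shares over all 21779 genes. Hox genes stand at 0% and 100%, integrins at 29.0% and 3.23%.

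Genes of the Polycomb and PR-DUB machinery were among the members, and the interval of each list's share includes the 12.8% of all genes. The shares were 28.6% for PRC2 (Wilson interval 11.7 to 54.6%), 9.38% for PRC1 (3.24 to 24.2%) and 16.7% for PR-DUB (4.70 to 44.8%). A region of the second libraries only was at 7 PRC2 (50%), 12 PRC1 (37.5%) and 2 PR-DUB genes (16.7%), beside 25.7% of all genes. Of 14 PRC2 genes 4 had a wild-type-1-missed region and 1 a region of all 4 libraries. Suz12, a core subunit, had fold enrichments of 3.57, 5.57 and 4.77, Aebp2, an accessory subunit, 3.20, 6.38 and 7.74, the PRC2 inhibitor Ezhip 2.94, 5.34 and 7.84, and Ezh1, a catalytic subunit, 2.83, 3.33 and 6.92 together with a BAP1 peak of C91A cells. Of 32 PRC1 genes 3 had one and 11 a region of all 4: Yaf2, a subunit of variant PRC1, had 9.27, 16.5 and 18.4, Pcgf1, the Polycomb ring finger partner of RNF2 in variant PRC1, 3.74, 3.93 and 13.7, and the canonical subunit Phc2 2.96, 5.17 and 12.6. Of 12 PR-DUB genes 2 had one, Foxk1 with 3.79, 5.88 and 12.4 and the histone demethylase gene Kdm1b with 3.32, 5.45 and 11.4. Yaf2 stood above the class median in all 3 libraries, and the 4 PRC2 genes stood below it in both BAP1 knockout libraries. Of 120 genes of histone and DNA modifiers 14 had one and 15 a region of all 4.

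Apoptosis and cell cycle genes had shares close to the 12.8% of all genes. Of 37 apoptosis genes 5 had a wild-type-1-missed region (13.5%, 5.91 to 28.0%) and 6 a region of all 4 libraries. Bok, a BCL2 family effector, had fold enrichments of 6.94, 8.02 and 13.9, the initiator caspase gene Casp8 5.43, 7.84 and 12.6, its inhibitor Cflar 4.44, 3.15 and 12.0, the BH3-only gene Bmf 3.97, 3.46 and 8.83, and Bcl2l14 3.50, 3.03 and 7.19. All cells had been kept in a caspase inhibitor, which belongs to every library alike. Of 32 cell cycle genes (cyclins, CDK inhibitors, E2F and related factors) 5 had one (15.6%, 6.86 to 31.8%) and 9 a region of all 4: Ccna1 had 5.63, 12.7 and 17.5, E2f2 4.62, 8.43 and 13.1, E2f7 3.81, 4.79 and 10.1, Gadd45b 7.82, 3.24 and 14.1, and Cdkn1b, the CDK inhibitor p27, 2.24, 4.49 and 19.2.

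Lists of genes that all cells use gave shares at or below the background. Of 84 cytosolic ribosomal genes 2 had a wild-type-1-missed region (2.38%), of 46 Nduf genes 1, of 84 histone genes 1, the linker histone H1f0, and of 77 mitochondrial ribosomal genes 6 (7.79%), beside 12.8% of all genes. Of 86 splicing genes 11 (12.8%) and of 48 proteasome genes 6 (12.5%) had one, and none of either list had a region of all 4 libraries. The immunoproteasome genes Psmb8 and Psmb9 had 4.56, 12.8 and 18.4 and 4.65, 8.63 and 15.4 in fold enrichment. Of 1105 olfactory receptor genes 3 had one and of 350 vomeronasal receptor genes none did.

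Of 26 pluripotency genes 1 had a wild-type-1-missed region (3.85%, 0.682 to 18.9%), Dppa3, an oocyte and naive-state gene, with fold enrichments of 4.79, 4.68 and 9.62, while 10 had a region of the second libraries only and 3 one of all 4. Of 20 trophoblast genes 2 had one (10.0%), Krt8 and Tead4, and 14 a region of all 4 libraries. Of 18 primitive endoderm genes 1 had one, Lama1, and 11 a region of all 4. Of 33 germline genes 3 had one (9.09%), Tex11, Rhox13 and Rec8, and 19 a region of all 4, and of 41 imprinted genes 2, Mest and Mkrn3, and 19. None of 10 feeder fibroblast genes had one and 4 had a region of all 4 libraries. These lists are short, and the 95% Wilson interval of the share of each of the 6 includes 12.8%. RNF2 peaks do not measure expression, so these counts do not check the cell type.

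A BAP1 peak of C91A cells overlapped 55 of 3822 (1.44%, 95% Wilson interval 1.11 to 1.87%), beside 1.85% of all merged regions and 1.57% (1.36 to 1.82%) of the regions of the second libraries only. In regions of all 4 libraries it was 14.2% (13.0 to 15.5%). Of the 2395 BAP1 peaks, 74 (3.09%) lay in wild-type-1-missed regions and 1866 (77.9%) in regions of all 4 libraries. The control list of BAP1 knockout cells, from a shallower library, overlapped 2 of the 3822 (0.0523%). BAP1 ChIP had 1 library per genotype, so there is no replicate check, and the intervals cover counting error only. When every list, that of BAP1 included, was limited to −log10 q values of 5 or more, 7 of 3536 regions (0.198%) were left with a BAP1 peak. The median −log10 q was 3.06 for BAP1 peaks inside the wild-type-1-missed regions and 3.08 for all BAP1 peaks, so this limit removed most of the BAP1 list in general. Without the first wild-type library in the rule, which takes in the regions of all 4, the share was 7.12% (490 of 6878).

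The gap to regions of all 4 libraries was also present within ranges of RNF2 fold enrichment. Split by fold enrichment in the second wild-type library at limits of 4.60 and 7.33, the shares with a BAP1 peak in wild-type-1-missed regions were 2.67, 1.26 and 0.392% from the lower to the upper of 3 equal groups. In regions of all 4 libraries, the same limits gave 11.9% (5 of 42), 4.02% (10 of 249) and 15.2% (420 of 2765). In regions of the second libraries only they gave 1.57, 1.70 and 0.637%, close to the wild-type-1-missed regions. In the upper group, with 5 of 1274 wild-type-1-missed regions, their interval (0.168 to 0.915%) did not overlap that of regions of all 4 libraries (13.9 to 16.6%). That group has no upper limit, and regions of all 4 libraries were higher and wider as a class, so the classes are not matched within it. Within the wild-type-1-missed regions BAP1 peaks were thus at the weaker RNF2 sites: those with one had a median fold enrichment of 4.33 in the second wild-type library and those without 5.79. Regions were also split by the length that peaks of this library covered, at limits of 966 and 1595 bp. The shares were then 2.20, 1.41 and 0.706%, against 4.55, 3.13 and 16.0% in regions of all 4 libraries. The intervals of these classes overlapped in the lower group (1.52 to 3.16% and 1.96 to 10.2%) and in the middle group (0.896 to 2.22% and 1.71 to 5.67%). Regions of the second libraries only had 1.57, 1.65 and 1.27% at these limits of length.

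**Figure D4:**
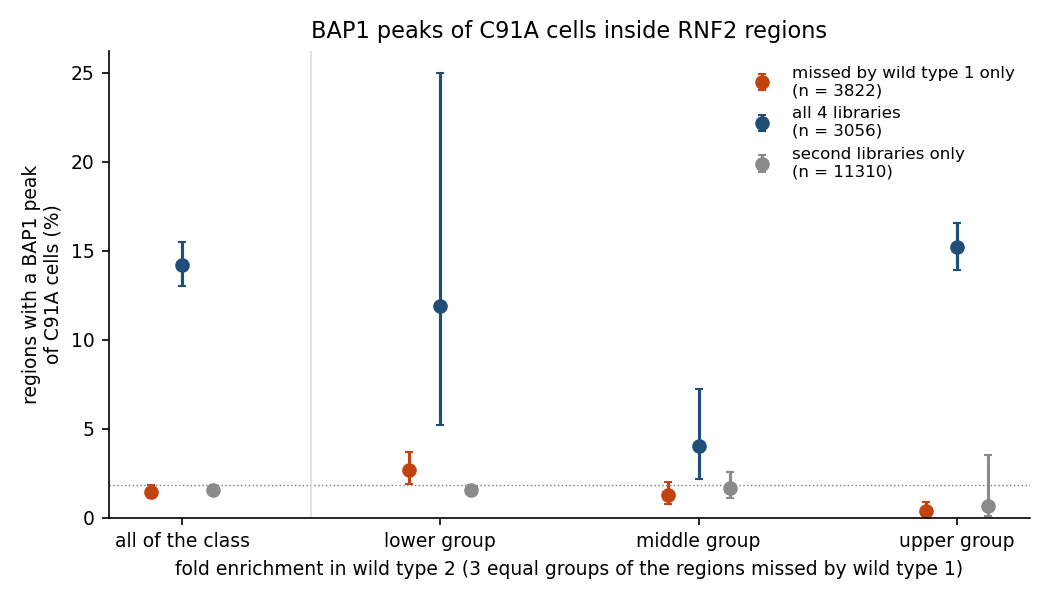
Share of regions with a BAP1 peak of C91A cells (y axis, %; lines are 95% Wilson intervals) for each whole class and within 3 ranges of fold enrichment in the second wild-type library; the dotted line is the share over all merged regions, 1.85%. In the regions missed by wild type 1 the share is 2.67% in the lower and 0.392% in the upper group.

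Most of the BAP1-overlapped regions were at an end of a gene, which can be its start or its other end. Of the 55, 48 lay at a gene end (87.3%, against 65.4% of the others). The highest BAP1 fold enrichment was 5.52, at the start shared by Lsm7, an RNA-binding gene, and Sppl2b, an intramembrane protease gene, where RNF2 had 3.05, 5.89 and 9.20. Psme3, which encodes a proteasome activator, had a BAP1 fold enrichment of 5.44 and RNF2 fold enrichments of 2.32, 4.51 and 6.50. Its region has no place in the class when lists are limited to −log10 q values of 5 or more, as have those of Chmp1b, and of Ezhip and Cdkn1b above. Next were a region in no gene at chr13:65240346-65242067 with 5.35, Letm2 with 4.69 and Chmp1b with 4.35. The chr13 region also leaves the class at that limit of 5, with 4.42 at most in the first BAP1 knockout library. Of the 57 promoters under such regions 13 held the ETS letters (22.8%, 13.8 to 35.2%), against 10.7% (9.51 to 12.0%) of the 2316 promoters under the other wild-type-1-missed regions. Under regions of the second libraries only, the shares were 36.8% with a BAP1 peak and 17.2% without, and under regions of all 4 libraries 7.11% and 7.26%. Some of the 57 promoters overlap one another, as those of Lsm7 and Sppl2b do, so the interval understates the error. The BAP1-overlapped regions were also weaker RNF2 sites, and the lower group by fold enrichment had the letters in 18.9% of its promoters. Whether the difference goes with RNF2 height was not tested. The promoter of Psme3 (chr11:101315963-101316262, plus strand, RefSeq, GRCm38.p6) shows the motif, in capitals, once on each strand.
Psme3: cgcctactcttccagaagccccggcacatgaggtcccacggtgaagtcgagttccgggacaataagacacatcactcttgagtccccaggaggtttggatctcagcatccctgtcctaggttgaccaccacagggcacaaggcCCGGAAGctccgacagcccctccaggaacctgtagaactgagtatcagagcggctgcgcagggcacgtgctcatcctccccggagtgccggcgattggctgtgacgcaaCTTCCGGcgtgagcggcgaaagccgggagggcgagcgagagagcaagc

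Peaks of the wild-type-1-missed regions covered more sequence in the second BAP1 knockout than in the second wild-type library. The median length under peaks was 1268.5 bp in the wild-type and 1924 bp in the knockout library, and 3561 of 3822 (93.2%) were wider in the knockout, beside 80.8% of all regions in both second libraries. In regions of all 4 libraries it was 65.3%, with medians of 2949.5 and 3163.5 bp, and in regions of the second libraries only 81.0%. In the first pair, where wild-type-1-missed regions have no wild-type value, 94.2% of the regions of all 4 libraries were wider in the knockout, with medians of 1054 and 2058.5 bp. The gap between the classes was therefore seen in the second pair and could not be looked for in the first. Within the same limits of wild-type length the shares in wild-type-1-missed regions were 98.4, 93.9 and 87.2% from short to long, against 89.1, 86.5 and 61.7% in regions of all 4 libraries. Regions of the second libraries only had 81.6, 79.1 and 66.1%. The wild-type length both set these groups and entered the comparison, so the fall from short to long was not read as a result. The rule asked for a peak in both of these libraries and for the missing peak in another wild-type library, and each genotype has 1 library in this pair with 28770 and 39872 peaks, so these lengths are a description.

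**Figure D5:**
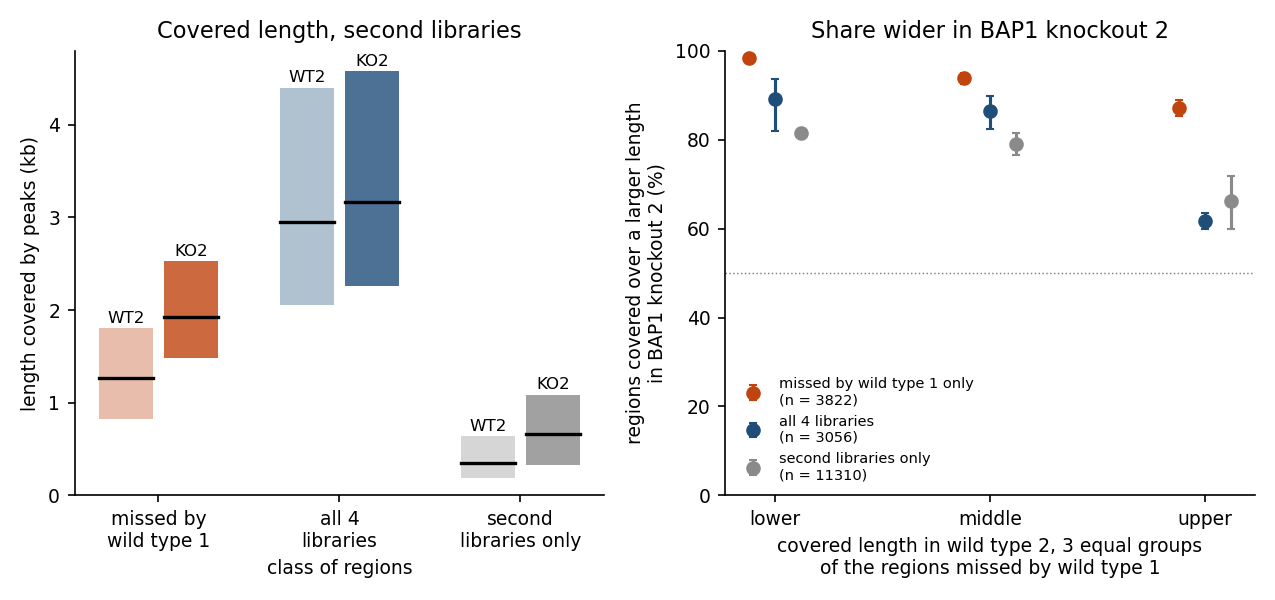
Left, length covered by peaks (y axis, kb) in the second wild-type (WT2, pale) and second BAP1 knockout (KO2, dark) library for each class of regions, bars spanning the quartiles with the median as a line; right, share of regions covered over a larger length in BAP1 knockout 2 (y axis, %, 95% Wilson intervals) by wild-type 2 length, split into 3 equal groups of the regions missed by wild type 1. Medians of the regions missed by wild type 1 are 1268.5 and 1924 bp.

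The widest regions show how unequal the lengths could be. At Ltbp4, a gene for a latency protein of TGF-beta, the covered length was 2842 bp in the second wild-type and 14068 bp in the second BAP1 knockout library (fold enrichments 4.89, 3.56 and 20.9). Plec, a cytoskeletal linker gene, had 3548 and 10849 bp, the region of Nab2 and Stat6 had 4493 and 9372 bp, and that of Ndufa4l2 and Stac3 3064 and 7942 bp. Barhl1, a homeobox gene of the hindbrain and inner ear, had 11012 and 11338 bp. In the first BAP1 knockout library these 5 regions covered between 3271 and 7259 bp.

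Of 1005 microRNA hairpins in the RefSeq table, 130 overlapped a merged RNF2 region of any class. Of these 130, 30 overlapped a wild-type-1-missed region, 41 a region of all 4 libraries and 40 a region of the second libraries only. Mir219a-2 and Mir219b, on opposite strands in the same region, are counted separately. These counts were not tested. By the same rank the top was Mir193b (7.88, 17.9 and 21.4 in RNF2 fold enrichment; chr16:13446172-13449973) followed by Mir137, a microRNA of neurons (7.86, 11.5 and 18.1; chr3:118432887-118435955). Next in rank were Mir5046 (7.71, 12.9 and 20.3) and Mir1900 (8.46, 7.10 and 20.9). Mir219a-2, a microRNA of oligodendrocytes, came after them with 5.75, 8.47 and 13.7. The mature arms below carry the seed, bases 2 to 8, in capitals, and no seed is shared between them.
mmu-miR-193b-3p: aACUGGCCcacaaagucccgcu
mmu-miR-137-3p: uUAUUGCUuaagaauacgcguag
mmu-miR-219a-5p: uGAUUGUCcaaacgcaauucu
The regions of Mir193b and Mir137 lay at no protein-coding gene end, so they are not among the genes counted above.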

How the data were processed

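The authors sequenced 50 bp single-end reads and aligned them to GRCm38 (mm10) with GSNAP (its version: not given in the sources used here), as the submitters' processing notes say. Per the file headers, peaks were called per library against its input with MACS2 2.1.0.20150420 (first RNF2 pair, BAP1 libraries) or 2.1.1.20160309 (second pair, RNF2 knockout) at a q-value limit of 0.05, with a fragment or extension length of 297 and 323 bp in the first and 100 bp in the second RNF2 pair. The authors' deposited lists hold peak coordinates, pileup signal, −log10 p and q values and fold enrichment, which is a ratio. Counts of reads at uncalled positions were not analysed here, so a region without a peak has no value in that library.

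RNF2 peaks overlapping by at least 1 bp were merged. Merging and classing were tested on simulated peaks. Gene ends came from the RefSeq gene table and starts from the RefSeq promoter table (both GRCm38.p6), which held 17492 of the 21779 protein-coding genes and no start on chromosome 18. Intervals of shares are Wilson intervals at 95% and reflect counting error alone. Python 3.11.15, pandas 2.3.3, numpy 2.4.6, scipy 1.17.1 and matplotlib 3.10.9 were used. The members, the 42 gene lists and the motifs were chosen with earlier results of these data known. Named were the 10 regions with the highest lowest fold enrichment, the 5 widest, the 5 highest off gene ends, the 5 with the highest BAP1 enrichment, the 3 nearest the rule's limit on each side, up to 4 per list (some are not reported here), and every gene of the Polycomb, PR-DUB, apoptosis and cell cycle lists. No list was tested for enrichment, and no model was fitted. Alternatives were other peak thresholds, list lengths, overlaps, windows and libraries. The BAP1-FLAG cells were not analysed here.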

Additional observations from a re-analysis of the deposited data

How the results depend on the processing

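Merging at 50% of the shorter peak, or requiring no first wild-type peak within 5 kb, left the number of regions, both shares and the gene count within 1.5 times or within the interval of the reported value. Peaks up to 1 kb apart, when merged, gave 67.4% at a gene end. When lists were limited to −log10 q values of 5 or more, the share at a gene end was 67.6% and that with a BAP1 peak 0.198%, and at 10 or more they were 71.4% and 0% (0 of 2903), the BAP1 list being shortened too. Which genes were in the class moved more than these shares: at 10 or more, 1432 of the 2787 genes were still in it (51.4%), and 122 of the 152 genes that the naming rule gives. With every RNF2 list shortened to the shortest, 597 regions and 480 genes were left, all 480 among the 2787 and 77 of the 152 among them, with 71.7% at a gene end and 0.335% with a BAP1 peak. Leaving out a library in turn gave 3939 to 15230 regions, 52.5 to 70.5% at a gene end, 1.17 to 7.12% with a BAP1 peak and 2684 to 8115 genes; the upper counts came without the first BAP1 knockout library, and 6878 regions and the 7.12% without the first wild-type library. Windows of 2.5 kb, summits in the window and listed starts only gave 70.3, 61.0 and 55.0% at a gene end. The mean over a region's peaks gave median fold enrichments of 4.98 and 11.4 in the second wild-type and BAP1 knockout libraries. Chosen after seeing the data, leaving out regions at 2 or more genes gave 8.80% with the ETS letters, and spans from first to last peak gave 92.3% wider in BAP1 knockout. Except where a setting removes peaks or libraries, the cause was not tested.

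No paired test was made, because the results are counts and shares of peak lists. The missing peak leaves the first pair without a wild-type value in these regions. Values within the second pair, and within both pairs for regions of all 4 libraries, are described in the text. The class rests on absence from the first wild-type library, the shortest RNF2 list, where a weak site and an unbound one cannot be told apart.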
